A study of Arabidopsis thaliana with 6 samples.

Results

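The core low-oxygen response genes of *Arabidopsis thaliana* are the genes that plants most widely switch on when oxygen runs short. The 10 described here are PDC1 (AT4G33070), ADH1 (AT1G77120), LDH1 (AT4G17260), SUS1 (AT5G20830), SUS4 (AT3G43190), HB1 (AT2G16060), PCO1 (AT5G15120), PCO2 (AT5G39890), HRA1 (AT3G10040) and LBD41 (AT3G02550). They were taken by identifier, and they and the lists below were chosen with earlier results of these data known. They make up 10 of the 33690 features in the expression table. The samples were mature main stems of *hdt1* mutant plants and of wild-type (WT) plants, all untreated, collected 35 days after flowering from a greenhouse at 20 °C with 16 h of light and 8 h of dark. These conditions are those of the sample labels. The paper's methods state a range of temperature that includes 20 °C, and a shorter daily light period. RNA was sequenced in 3 libraries per genotype, and none of the labels names a shortage of oxygen. HDT1 encodes a plant-specific histone deacetylase of the HD2 family. The study worked with 2 T-DNA insertion lines of it, *hdt1-1* and *hdt1-2*, and neither labels nor methods name the one that was sequenced. Columns of the table carry the numbers 1, 2 and 4 for both genotypes while the labels count 3 replicates, so a column was matched to a genotype and not to any single labelled sample. The paper says that stems were collected in triplicate, while the series text denies replicates. Nothing in the sources says that replicates came from separately grown plants, so every p-value measures only the spread between these libraries. Values are FPKM, sequenced fragments scaled by gene length and by the fragments mapped in the library.

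When oxygen falls, respiration stalls and plant cells make ATP by glycolysis, which needs its NAD+ back. Pyruvate decarboxylase and alcohol dehydrogenase return it by making ethanol, lactate dehydrogenase by making lactate, and sucrose synthase feeds the pathway by cleaving sucrose at a lower cost in ATP than invertase. The switch is set by group VII ERF transcription factors, whose N-terminal cysteine is oxidised by plant cysteine oxidases (PCO) while oxygen is present, which marks the factors for breakdown by the N-degron pathway. Without oxygen the factors persist and switch on fermentation genes, a nitric oxide scavenging haemoglobin, and genes that act back on the pathway, among them the PCO genes themselves and HRA1.

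Promoters of anaerobic genes have long been described by short sequence elements, and stretches that hold such letters are shown for 5 of the genes. SUS1, LBD41 and HRA1 hold such letters too, and their stretches are not shown. The sequences were read from the TAIR10.1 genome on the strand of the gene, 5′ to 3′, with the start taken from the TAIR10.1 annotation. Capitals mark AAACCA (the GT-type letters of the anaerobic element of ADH1), GCCCC (its GC-type letters), CACGTG (the G-box) and AAACAAA (an anaerobic consensus), each searched on both strands, so that GGGGC is GCCCC on the other strand.
PDC1, chr4:15954804-15954893, minus strand, 90 to 1 bases before the start: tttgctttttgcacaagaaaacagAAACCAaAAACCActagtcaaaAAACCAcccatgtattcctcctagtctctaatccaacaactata
ADH1, chr1:28975165-28975254, plus strand, 90 to 1 bases before the start: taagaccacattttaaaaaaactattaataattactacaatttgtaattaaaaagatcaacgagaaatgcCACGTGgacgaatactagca
LDH1, chr4:9673738-9673827, plus strand, 159 to 70 bases before the start: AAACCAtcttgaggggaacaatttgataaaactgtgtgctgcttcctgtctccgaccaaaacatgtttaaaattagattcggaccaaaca
PCO1, chr5:4898551-4898640, plus strand, 90 to 1 bases before the start: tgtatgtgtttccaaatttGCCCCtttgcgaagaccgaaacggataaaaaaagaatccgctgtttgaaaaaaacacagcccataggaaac
PCO2, chr5:15974180-15974269, plus strand, 90 to 1 bases before the start: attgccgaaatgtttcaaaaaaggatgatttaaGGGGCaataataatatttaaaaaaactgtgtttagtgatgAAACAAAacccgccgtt

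PDC1 held AAACCA 3 times, with the matches beginning 66, 59 and 44 bases before its start. Within 250 bases before the start, AAACCA also stood before ADH1 (at 166), LDH1 (at 159) and SUS1 (at 216, on the other strand), so 4 of the 10 genes had it, against 27.3% of 27443 protein-coding genes. Both oxygen sensor genes had GCCCC, PCO1 at 71 and PCO2 at 57 on the other strand, and 4.55% of all these genes did. CACGTG stood at 20 before ADH1 and at 154 before LBD41 (6.49% of all genes), and AAACAAA before PCO1, PCO2 and HRA1 (33.0% of all genes). SUS4 and HB1 had none of these letters in the window. The matches are descriptions of sequence and were not tested.

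Library 1 stood apart in both genotypes, and this split runs through all that follows. Across genes, libraries 2 and 4 of a genotype correlated at r = 0.995, the library 1 pair of *hdt1* and WT at 0.977, and all other pairs at 0.853 to 0.906. Values are therefore also given within library 1, which holds 1 library per genotype, and within libraries 2 and 4. The mutated gene HDT1 had 4.97, 19.8 and 20.5 FPKM in *hdt1* libraries 1, 2 and 4, against 53.3, 65.3 and 56.9 FPKM in WT. Whole reads recovered from the FPKM steps sum to between 41825156 and 44329784 per library in *hdt1* and between 39706138 and 42579635 in WT. Markers of stem xylem and phloem were present in all libraries, though XCP1 was at only 0.0712 and 0.0953 FPKM in WT libraries 2 and 4. From the marker lists, 0 genes passed the test over 6 libraries by limma. The summed FPKM of 9 xylem and fibre markers was 254 to 269 in *hdt1* and 42.7 to 110 in WT, and that of 3 phloem markers 172 to 182 and 101 to 131. All 9 had higher *hdt1* means, as had 7407 of the 17906 genes reaching 1 FPKM in 3 or more libraries. Of the 9, 7 were higher at an unadjusted p under 0.05 from limma, against 7.78% of those genes. XCP1, one of these 7, reached 1 FPKM only in *hdt1*. The study itself picked CESA4, CESA7, LAC4, FLA11 and XCP2 from these libraries, so their differences here are not independent evidence. It also reports CESA4 and CESA7 as higher by quantitative PCR. The 11 seed storage markers summed to 0.426, 9.63 and 8.74 in *hdt1* libraries 1, 2 and 4 and to 0, 300.4 and 300.7 in WT. Of these markers, SESA1 alone reached 1 FPKM in 3 or more libraries. SESA1 made up most of the *hdt1* sum in libraries 2 and 4 and went the other way. Its mean there was 8.23 FPKM in *hdt1* and 4.88 FPKM in WT, while the other 10 were lower in *hdt1*. The study also picked the seed marker PAP85 from the same data, so its difference is not independent evidence. The paper reports PAP85 as lower by quantitative PCR too. Of the 4 anther and pollen markers, A9 was at 0 in all libraries. The 4 summed to 6.48, 1.41 and 1.21 in *hdt1* libraries 1, 2 and 4, against 2.24, 20.2 and 21.0 in WT. The 5 photosynthetic markers summed to 5105, 2755 and 2807 in *hdt1*, against 5123, 3843 and 3860 in WT. Both sums overlapped between the genotypes over all libraries, but within libraries 2 and 4 both were lower in *hdt1*. All 5 photosynthetic markers were lower there without overlap, as were 8751 of those 17906 genes. The part of these tissues in the results was not tested, and in bulk stems fewer cells of a type and less RNA per cell cannot be told apart.

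In libraries 2 and 4 the fermentation genes PDC1 and LDH1, the sucrose synthase gene SUS4 and the haemoglobin gene HB1 stood 11.2 to 67.4 times higher in *hdt1* stems than in WT stems, and in library 1 none of these 4 differed by more than 1.69 times. ADH1, SUS1, PCO1, PCO2 and HRA1 had smaller differences of the same direction in libraries 2 and 4, between 1.70 and 3.73 times, and LBD41 differed in library 1 instead. The summed FPKM of the 10 genes was 93.5, 391 and 390 in *hdt1* libraries 1, 2 and 4, against 74.0, 119 and 121 in WT. No gene passed the test over all 6 libraries, in which limma compared log2(FPKM + 1) and p-values were adjusted over the 17906 genes that reached 1 FPKM in 3 or more libraries. PDC1 and SUS4 were not among these genes, since each exceeded 1 FPKM in *hdt1* libraries 2 and 4 alone, so 8 of the 10 were kept. On the scale used, log2 differences of low genes are smaller than those of the FPKM themselves.

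**Figure D1:**
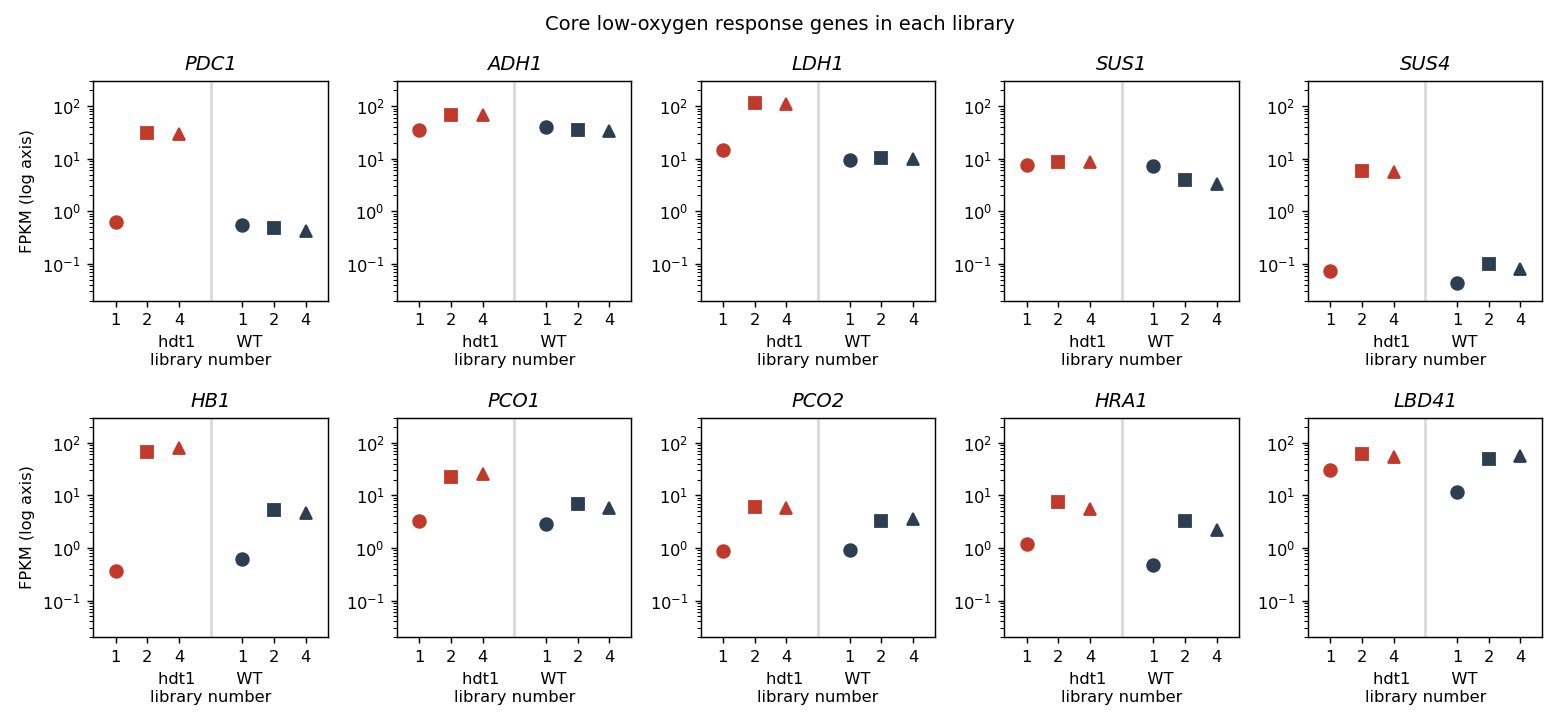
FPKM of each of the 10 genes in *hdt1* libraries 1, 2 and 4 (red) and WT libraries 1, 2 and 4 (dark blue), on a log axis with 1 point per library. The squares and triangles of *hdt1* lie far above all other points for PDC1, LDH1, SUS4 and HB1, whereas the circles of library 1 differ most between the genotypes for LBD41 (2.63 times) and HRA1 (2.56 times).

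Both enzymes of the route from pyruvate to ethanol had transcripts with higher values in *hdt1* libraries 2 and 4 than in WT. PDC1 (chromosome 4, 15952257 to 15954803, minus strand, 5 exons), a pyruvate decarboxylase, was listed at 0.628, 30.6 and 29.1 FPKM in *hdt1* libraries 1, 2 and 4, against 0.536, 0.472 and 0.414 FPKM in WT. The values correspond to 61, 2801 and 2655 reads in *hdt1* and 49, 44 and 36 reads in WT. PDC1 was thus nearly silent in 4 of the 6 libraries and high in *hdt1* libraries 2 and 4, and although the genotypes did not overlap, *hdt1* library 1 lay only just above WT. PDC1 averaged 20.12 ± 16.9 FPKM in *hdt1* and 0.474 ± 0.0613 FPKM in WT (SD, n = 3 each). The log2 difference was 0.08 in library 1, 4.42 in libraries 2 and 4 and 2.97 over all (standard error 1.20, adjusted p = 0.412 from limma with no filter on low values). ADH1 (chromosome 1, 28975255 to 28977417, plus strand, 7 exons), which turns acetaldehyde into ethanol, had 34.7, 67.0 and 67.2 FPKM in *hdt1*, against 40.3, 35.5 and 34.1 FPKM in WT. In WT its libraries were alike, and in *hdt1* libraries 2 and 4 stood well above library 1, which lay within the WT range. ADH1 averaged 56.3 ± 18.7 FPKM in *hdt1* and 36.7 ± 3.26 FPKM in WT (SD, n = 3 each). The log2 difference of ADH1 was -0.21 in library 1, 0.93 in libraries 2 and 4 and 0.55 over all (standard error 0.29, adjusted p = 0.440 from limma). ADH1 shares 61 bp with AT1G77122 on the opposite strand, a gene at 12.7 FPKM in *hdt1* and 21.0 FPKM in WT on average, and no source used here states whether reads were counted by strand.

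In *hdt1* libraries 2 and 4 the highest level of the 10 genes was that of lactate fermentation. LDH1 (chromosome 4, 9673897 to 9675540, plus strand, 2 exons), an L-lactate dehydrogenase, stood at 14.4, 114 and 110 FPKM in *hdt1* libraries 1, 2 and 4, against 9.45, 10.1 and 9.88 FPKM in WT. All *hdt1* libraries lay above all WT libraries, and WT varied little, at 9.82 ± 0.341 FPKM (SD, n = 3), while *hdt1* was at 79.5 ± 56.4 FPKM (SD, n = 3). The log2 difference of LDH1 was 0.56 in library 1, 3.36 in libraries 2 and 4 and 2.43 over all (standard error 0.78, adjusted p = 0.305 from limma), the smallest adjusted p of the 8 kept genes. Without *hdt1* library 1 its adjusted p from limma was 0.00142.

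Both sucrose synthase genes are known to respond to low oxygen, and they differed in form. SUS1 (chromosome 5, 7050217 to 7055398, minus strand, 14 exons) was at 7.61, 8.48 and 8.78 FPKM in *hdt1* libraries 1, 2 and 4, against 7.26, 3.97 and 3.33 FPKM in WT. The *hdt1* libraries were even, and the spread came from WT, where library 1 was near the *hdt1* level. Means of SUS1 were 8.29 ± 0.606 FPKM in *hdt1* and 4.85 ± 2.11 FPKM in WT (SD, n = 3 each). SUS1 had a log2 difference of 0.06 in library 1, 1.05 in libraries 2 and 4 and 0.72 over all (standard error 0.27, adjusted p = 0.331 from limma). SUS4 (chromosome 3, 15179010 to 15184105, minus strand, 13 exons) had 0.0720, 5.72 and 5.62 FPKM in *hdt1*, or 9, 673 and 659 reads, against 0.0425, 0.10 and 0.0804 FPKM in WT, or 5, 12 and 9 reads. Like PDC1, SUS4 was close to absent outside *hdt1* libraries 2 and 4, where it stood 62.8 times above WT libraries 2 and 4. SUS4 averaged 3.80 ± 3.23 FPKM in *hdt1* and 0.0743 ± 0.0293 FPKM in WT (SD, n = 3 each). The log2 difference was 0.04 in library 1, 2.61 in libraries 2 and 4 and 1.76 over all (standard error 0.74, adjusted p = 0.418 from limma with no filter). The longest transcripts of SUS1 and SUS4 shared 0 of 3441 windows of 50 bases, and their longest identical run was 38 bases.

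HB1 (chromosome 2, 6982531 to 6983777, minus strand, 4 exons), a class 1 haemoglobin that removes nitric oxide, combined both kinds of difference. It was at 0.367, 67.3 and 79.6 FPKM in *hdt1* libraries 1, 2 and 4, against 0.614, 5.33 and 4.69 FPKM in WT. Library 1 was lowest in each genotype, with 14 reads in *hdt1* and 22 in WT, and WT libraries 2 and 4 were 8.16 times above WT library 1. Within libraries 2 and 4 the *hdt1* mean was a further 14.7 times above that of WT. Means of HB1 were 49.1 ± 42.6 FPKM in *hdt1* and 3.54 ± 2.56 FPKM in WT (SD, n = 3 each), so the spread in *hdt1* was nearly as large as its mean. The log2 difference of HB1 was -0.24 in library 1, 3.63 in libraries 2 and 4 and 2.34 over all (standard error 1.62, adjusted p = 0.541 from limma).

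The oxygen sensors PCO1 and PCO2, which oxidise the N-terminal cysteine of the ERF factors, also had their lowest values in library 1 of both genotypes. PCO1 (chromosome 5, 4898641 to 4900734, plus strand, 5 exons) was at 3.29, 22.7 and 25.2 FPKM in *hdt1* libraries 1, 2 and 4, against 2.85, 6.98 and 5.88 FPKM in WT. PCO2 (chromosome 5, 15974270 to 15976270, plus strand, 5 exons) was at 0.875, 5.89 and 5.80 FPKM in *hdt1*, against 0.931, 3.24 and 3.63 FPKM in WT. In both genes *hdt1* libraries 2 and 4 lay above all WT libraries, and *hdt1* library 1 lay close to WT library 1. Means of PCO1 were 17.1 ± 12.01 FPKM in *hdt1* and 5.24 ± 2.14 FPKM in WT (SD, n = 3 each). PCO1 had a log2 difference of 0.16 in library 1, 1.75 in libraries 2 and 4 and 1.22 over all (standard error 0.74, adjusted p = 0.489 from limma). PCO2 averaged 4.19 ± 2.87 FPKM in *hdt1* and 2.60 ± 1.46 FPKM in WT (SD, n = 3 each), so the means differed by less than the *hdt1* spread. For PCO2 the log2 difference was -0.042 in library 1, 0.63 in libraries 2 and 4 and 0.40 over all (standard error 0.61, adjusted p = 0.786 from limma), the smallest overall difference of the 10 genes.

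HRA1 and LBD41 encode transcription factors of the response. HRA1 is a trihelix protein that binds the ERF factor RAP2.12 and dampens its activity, and LBD41 belongs to the LOB-domain family. HRA1 (chromosome 3, 3096345 to 3098417, minus strand, 1 exon) had 1.20, 7.39 and 5.53 FPKM in *hdt1* libraries 1, 2 and 4, against 0.468, 3.20 and 2.19 FPKM in WT. It was higher in *hdt1* in library 1 as well as in libraries 2 and 4, with log2 differences of 0.58 and 1.02, though *hdt1* library 1 lay below WT libraries 2 and 4, and 0.87 over all (standard error 0.61, adjusted p = 0.548 from limma). HRA1 averaged 4.71 ± 3.18 FPKM in *hdt1* and 1.95 ± 1.38 FPKM in WT (SD, n = 3 each). LBD41 (chromosome 3, 536500 to 538126, minus strand, 2 exons) had 30.3, 61.6 and 53.4 FPKM in *hdt1*, against 11.5, 49.6 and 56.9 FPKM in WT. LBD41 was the exception among the 10 genes, since its genotypes overlapped in libraries 2 and 4 and its difference lay in library 1, where *hdt1* was 2.63 times above WT. Means of LBD41 were 48.5 ± 16.2 FPKM in *hdt1* and 39.3 ± 24.4 FPKM in WT (SD, n = 3 each). The log2 difference of LBD41 was 1.32 in library 1, 0.11 in libraries 2 and 4 and 0.51 over all (standard error 0.63, adjusted p = 0.731 from limma), and it was -0.19 without WT library 1.

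**Figure D2:**
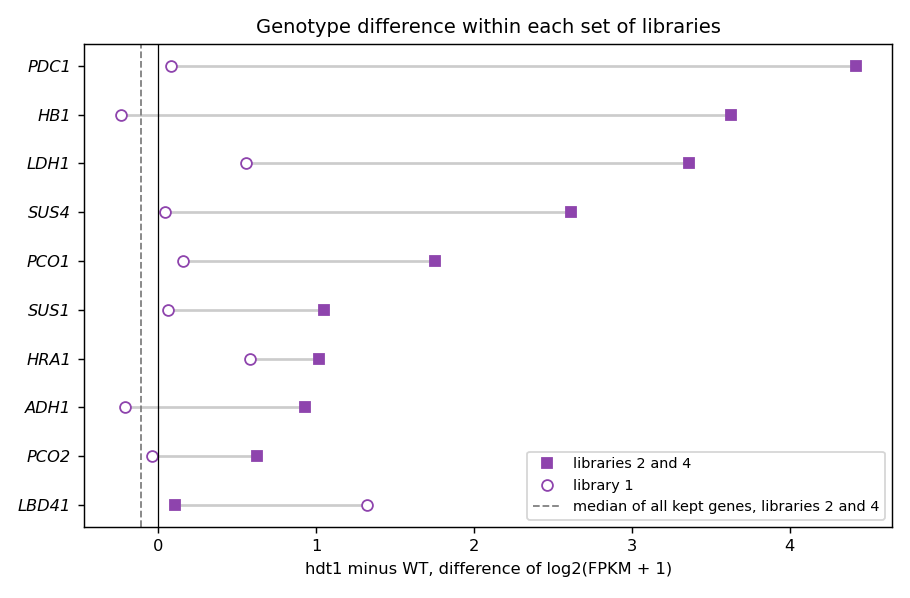
Difference of log2(FPKM + 1), *hdt1* minus WT, of each gene within libraries 2 and 4 (filled squares) and within library 1 (open circles), with the median of all kept genes in libraries 2 and 4 (-0.11) as a dashed line. For 9 genes the square lies right of the circle, from 0.63 for PCO2 to 4.42 for PDC1, and for LBD41 the circle, at 1.32, lies right of the square.

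The 8 kept genes had a median log2 difference of 0.80 over all libraries, 0.11 in library 1 and 1.03 in libraries 2 and 4, against -0.08, -0.03 and -0.11 for all 17906 kept genes. Of the 8, all had a positive value over all libraries and in libraries 2 and 4, and 5 were positive in library 1. Among all 17906, 7407 were positive over all libraries, 7571 in libraries 2 and 4 and 8160 in library 1. At an adjusted p under 0.05 from limma over 6 libraries 0 of the 8 passed, as did 0% of all genes, among which 0.0799 was the lowest adjusted p, and limma's voom on the recovered reads called 0 genes too. Before adjustment, SUS1 and LDH1 were higher at a p under 0.05, 2 of 8, against 7.78% of all genes. The *hdt1* libraries lay above all WT libraries for the same pair, 2 of 8, against 8.5% of all genes, and for PDC1 among the genes not kept. For these 3 genes the two-sided exact permutation test over libraries gave p = 0.1, the smallest that 3 against 3 libraries allow, and for the other 7 it gave p = 0.3 to p = 0.6.

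The counts depended on how library 1 was treated. In libraries 2 and 4, HB1, LDH1, PCO1, SUS1 and HRA1 differed by at least 1 on the log2 scale, 5 of the 8 kept genes against 8.87% of all genes. With PDC1 and SUS4 it was 7 of the 10 against 5.51% of all 33690 features, of which 25374 were above 0 in at least 1 library. The 10 genes were chosen with earlier results of these data known, so their counts beside those of all genes are descriptions. In library 1 only LBD41 did, 1 of 8 against 2.22% of all genes. With a term for library 1 in the model, 0 of the 8 passed (adjusted p from limma between 0.0551 for HRA1 and 0.208 for LBD41), against 3.82% of all genes higher. Without *hdt1* library 1, ADH1, HB1, PCO1 and LDH1 rose by limma, 4 of 8 against 6.82% of all genes, with adjusted p = 0.0248, 0.0230, 0.0287 and 0.00142. Without WT library 1 only SUS1 rose by limma (adjusted p = 0.0358), 1 of 8 against 3.35% of all genes. When libraries 2 and 4 were fitted alone, 7 of the 8 rose and LBD41 did not pass (adjusted p = 0.314 from limma), against 27.4% of all genes called higher. That fit rests on pairs of libraries that were nearly alike within a genotype.

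The order of the levels differed between the genotypes. FPKM allows for gene length, so means over libraries 2 and 4 can be set side by side. In *hdt1*, LDH1 led at 112 FPKM, followed by HB1 at 73.5, ADH1 at 67.1, LBD41 at 57.5, PDC1 at 29.9 and PCO1 at 24.0 FPKM. SUS1 at 8.63, HRA1 at 6.46, PCO2 at 5.84 and SUS4 at 5.67 FPKM closed the order. HB1 in library 2 lay only just above ADH1, and the libraries of HRA1 overlapped those of PCO2 and SUS4. In WT, LBD41 led at 53.3 FPKM and ADH1 followed at 34.8 FPKM, and these 2 were the only ones well above LDH1 at 9.999 FPKM. PCO1 had 6.43, HB1 5.01, SUS1 3.65, PCO2 3.44 and HRA1 2.70 FPKM in WT, with overlapping libraries for SUS1 and PCO2, and PDC1 at 0.443 and SUS4 at 0.0903 FPKM came last. PDC1 thus stood above 5 of the other genes in *hdt1* and above SUS4 alone in WT.

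The genes were also alike in their pattern over libraries to different degrees. Pearson's r of log2(FPKM + 1) over the 6 libraries, which share the split of library 1, was 0.999 for PDC1 with SUS4 and 0.996 for HB1 with PCO1. SUS1 and LBD41 were the least alike, at -0.24, and their median r with the other genes was 0.36 and 0.50, against 0.77 to 0.94 for the other 8. Among 14021 genes with a mean of at least 5 FPKM, those nearest to the mean profile of the 8 kept genes were VRN2 (AT4G16845), MDHAR (AT3G09940), PROPEP3 (AT5G64905), AT1G66180 and AT4G23215, each at r = 0.999 over 6 libraries. VRN2, a subunit of Polycomb repressive complexes, had 14.3, 21.2 and 21.3 FPKM in *hdt1* libraries 1, 2 and 4, against 13.4, 15.7 and 15.0 FPKM in WT. The monodehydroascorbate reductase gene MDHAR, of the ascorbate cycle, had 2.89, 204 and 210 FPKM in *hdt1*, against 0.871, 7.22 and 6.78 FPKM in WT. PROPEP3, the precursor of a peptide signal of wounding and defence, had 4.37, 35.7 and 38.4 FPKM in *hdt1*, against 2.81, 7.07 and 6.30 FPKM in WT. Genes of very different size of difference thus shared the profile, and the likeness is a description without a test.

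The relatives of the 10 genes had other patterns. PDC2, the most abundant pyruvate decarboxylase transcript, was at 200, 66.6 and 65.4 FPKM in *hdt1* libraries 1, 2 and 4, against 199, 41.3 and 42.2 FPKM in WT, so it was highest in library 1 of both genotypes. PDC4 had 1.59, 1.83 and 1.75 FPKM in *hdt1*, against 2.94, 3.26 and 3.27 FPKM in WT (log2 difference -0.61, adjusted p = 0.287 from limma), and PDC3 stayed under 0.5 FPKM in every library. SUS3 had 9.30, 15.3 and 14.2 FPKM in *hdt1*, against 5.79, 8.43 and 9.53 FPKM in WT (log2 difference 0.64, adjusted p = 0.362 from limma). SUS2 was lower in every *hdt1* library than in every WT library, at 0.625 to 0.665 FPKM in *hdt1* and 0.768 to 1.70 FPKM in WT, and SUS5 and SUS6 stayed at or under 1.71 FPKM. ADH2, a class III enzyme that acts on S-nitrosoglutathione, had 216, 86.2 and 85.7 FPKM in *hdt1*, against 217, 109 and 110 FPKM in WT.

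Among the cysteine oxidases, only PCO1 and PCO2 had lower values in library 1 of both genotypes than in libraries 2 and 4 of the same genotype. PCO5 was at 25.8, 17.9 and 17.7 FPKM in *hdt1* libraries 1, 2 and 4, against 27.2, 33.7 and 33.0 FPKM in WT, lower in each *hdt1* library (log2 difference -0.60, adjusted p = 0.316 from limma). PCO4 had 11.1, 10.1 and 12.6 FPKM in *hdt1*, against 10.4, 9.20 and 8.49 FPKM in WT, and PCO3 12.7, 6.62 and 6.64 FPKM in *hdt1*, against 13.2, 8.35 and 7.10 FPKM in WT. The other haemoglobins did not have the near absence of HB1 in library 1. HB2 was at 12, 14.7 and 16.1 FPKM in *hdt1*, against 16.5, 5.27 and 4.04 FPKM in WT (log2 difference 0.88), and HB3 at 17.3, 16.7 and 18.5 FPKM in *hdt1*, against 16.7, 8.51 and 8.31 FPKM in WT (log2 difference 0.67, adjusted p = 0.366 from limma). In HB2 and HB3, as in SUS1, the *hdt1* libraries were even and WT library 1 was near their level. LBD40 and LBD42 stayed at or under 0.284 FPKM. Of the 15 relatives 9 were kept, with a median log2 difference of 0.24 against -0.08 for all kept genes, and 0 passed over 6 libraries by limma. At an unadjusted p under 0.05, 1 of the 9 was higher and 2 lower, against 7.78% and 5.96% of all genes.

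**Figure D3:**
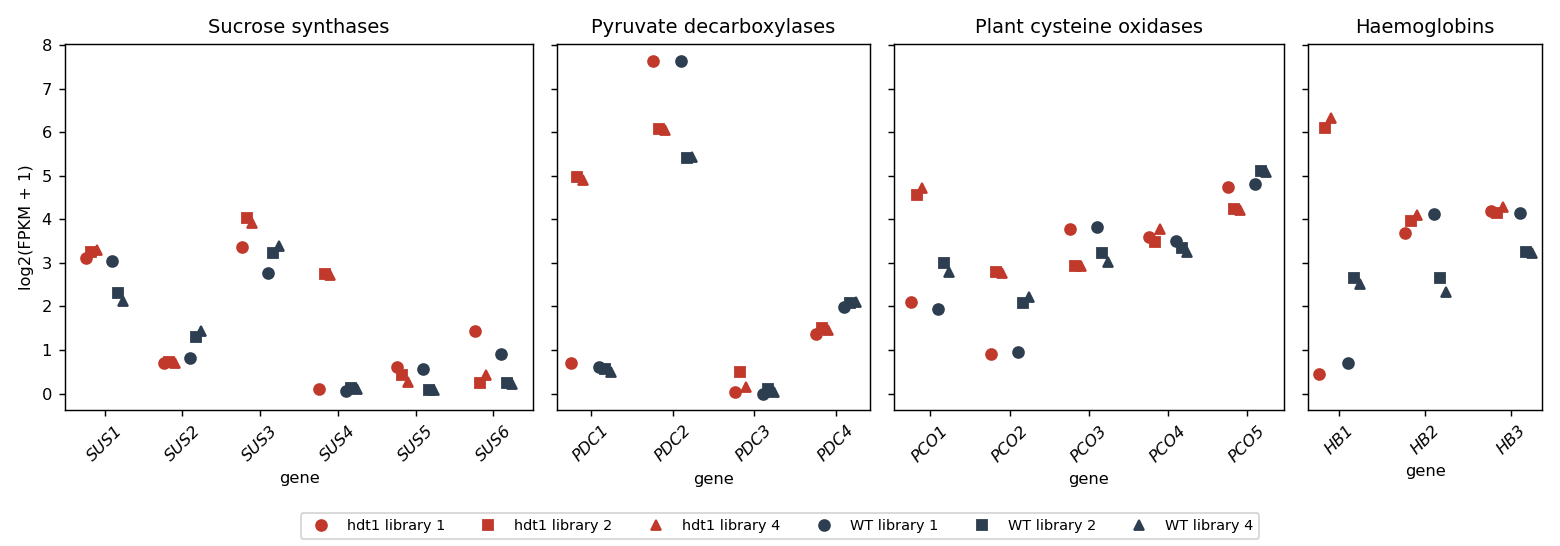
Log2(FPKM + 1) of the sucrose synthase, pyruvate decarboxylase, plant cysteine oxidase and haemoglobin genes in each library, with *hdt1* (red) left of WT (dark blue) and circles, squares and triangles for libraries 1, 2 and 4. The *hdt1* squares and triangles stand far above the other points for SUS4, PDC1, PCO1 and HB1, while PDC2 is highest in library 1 of both genotypes and PCO5 is lowest in *hdt1* libraries 2 and 4.

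A wider list of 33 other genes known to be induced by low oxygen gave a mixed picture. Of these 23 were kept, 19 of them with a positive log2 difference, at a median of 0.30 (library 1 alone 0.02, libraries 2 and 4 0.43), and 0 passed by limma. At an unadjusted p under 0.05 HRE1, AT1G19530 and SRO5 were higher, 3 of 23 against 7.78% of all genes, and in libraries 2 and 4, 9 of the 23 were higher by at least 1 on the log2 scale, against 8.87% of all genes, while AT1G33055 was lower by as much. HRE1, a group VII ERF factor that is itself induced, had 34.1, 99.5 and 103 FPKM in *hdt1* libraries 1, 2 and 4, against 27.2, 23.9 and 23.9 FPKM in WT (log2 difference 1.46, adjusted p = 0.295 from limma). AT1G19530 had a log2 difference of 1.01, with 0.34 in library 1 and 1.35 in libraries 2 and 4. AT1G33055 had -0.48 over all, 0.85 in library 1 and -1.15 in libraries 2 and 4, and PFK6, a phosphofructokinase of glycolysis, had -0.14.

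The following genes of that list were chosen after their values had been seen. HRE2, the other induced ERF factor, had 0.0323, 13.3 and 14.9 FPKM in *hdt1* libraries 1, 2 and 4, against 0, 0.0674 and 0.0361 FPKM in WT, and ACO1, an enzyme of ethylene synthesis, had 0.604, 20.0 and 20.4 FPKM in *hdt1*, against 0.729, 0.818 and 0.893 FPKM in WT. Both had the form of PDC1 and SUS4, near absence outside *hdt1* libraries 2 and 4. HRE2 is also among the genes that the study itself picked from these libraries under the name ERF071, so its difference here is not independent evidence. The paper also measured HRE2 by quantitative PCR and reports it as higher in *hdt1* stems, with a smaller log2 value than in its sequencing data. AT5G10040 had 6.27 and 7.69 FPKM in *hdt1* libraries 2 and 4 and was listed at 0 in the other 4 libraries. HRU1, a universal stress protein gene, stood at 134, 299 and 296 FPKM in *hdt1*, against 134, 130 and 136 FPKM in WT, the form of ADH1. AT3G10020, one of the most abundant of the list, was above WT in library 1 and below it in libraries 2 and 4, with 628, 255 and 248 FPKM in *hdt1*, against 292, 370 and 365 FPKM in WT.

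**Figure D4:**
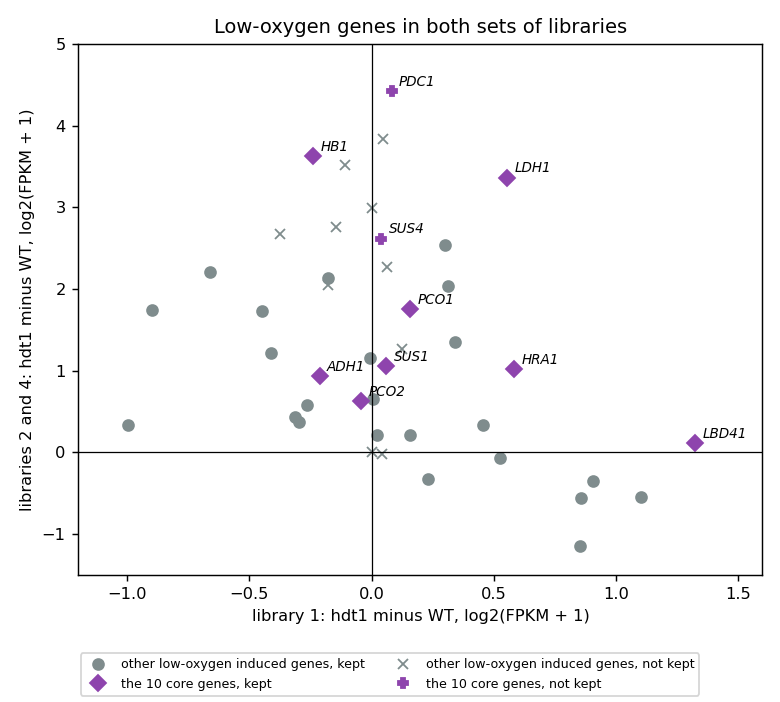
Log2 difference of *hdt1* minus WT in libraries 2 and 4 (vertical axis) against that in library 1 (horizontal axis), both on log2(FPKM + 1), for the 10 core genes (purple, named) and the 33 other low-oxygen induced genes (grey), with crosses for genes not kept. All points with a vertical value above 1 lie between -1 and 0.6 on the horizontal axis, and LBD41 lies at the right near 0 on the vertical axis.

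The genes that sense oxygen and set the response lay on both sides. In a list of 13 genes of oxygen sensing, with the group VII ERF factors, PCO3 to PCO5 and the enzymes of the N-degron pathway, 12 were kept, 4 of them with a positive log2 difference, at a median of -0.14. By limma 0 passed, and at an unadjusted p under 0.05, 1 of the 12 was higher and 2 lower, against 7.78% and 5.96% of all genes. The higher one was HRE1, and HRE2, which was not kept, also had its high values in *hdt1* libraries 2 and 4, as given above. PCO4 had a log2 difference of 0.24 and PCO5 -0.60. RAP2.3, the most abundant of the factors, had 2280, 2488 and 2476 FPKM in *hdt1* libraries 1, 2 and 4, against 3231, 4781 and 4756 FPKM in WT, lower in each *hdt1* library (log2 difference -0.80, adjusted p = 0.317 from limma). RAP2.12 and RAP2.2, which start the response and were chosen after their values had been seen, had log2 differences of -0.20 and 0.07. These are transcript levels, and the response is set through the stability of the proteins, which was not measured.

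Neighbouring metabolism and other stress responses were looked at in the same way. All 17 cytosolic glycolysis genes were kept, 10 of them with a positive log2 difference, at a median of 0.08 (library 1 alone -0.03, libraries 2 and 4 0.07), and 0 passed by limma, with 1 of 17 higher at an unadjusted p under 0.05, against 7.78% of all genes. The phosphoglycerate mutase gene iPGAM1 had 0.78 and the aldolase gene FBA8 0.66, while the hexokinase gene HXK2 had -0.48 and GAPC2, a glyceraldehyde-3-phosphate dehydrogenase gene, -0.21. Genes of touch and wounding had a positive log2 difference in 9 of 9 cases, against 7407 of all 17906 kept genes, at a median of 0.50 (library 1 alone 0.27, libraries 2 and 4 0.58). The jasmonate repressor gene JAZ10 led them at 2.11 (adjusted p = 0.242 from limma), and 0 of the 9 passed, with 1 higher at an unadjusted p under 0.05, against 7.78% of all genes. The 3 heat shock genes summed to 12.3, 94.4 and 93.3 FPKM in *hdt1* libraries 1, 2 and 4, against 25.1, 15.6 and 15.5 FPKM in WT. The sum in *hdt1* was thus below that in WT in library 1 and above it in libraries 2 and 4. HSP17.4, most of the sum in *hdt1* libraries 2 and 4, was not below WT in library 1, with 2.11 FPKM in *hdt1* and 1.88 FPKM in WT. For 4 genes of low sugar and dark the median was -0.08 and for 9 reference genes -0.02, although UBC9, one of these 9, had 1.22 (library 1 alone -0.07, libraries 2 and 4 1.87). The part of wounding or heat in the values of the 10 genes was not tested.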

How the data were processed

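The authors deposited 1 FPKM value per feature and library (their paper calls the unit RPKM), and the tools in the submitters' processing notes are HTSeq 0.6.1, TopHat2 2.0.12 and Bowtie2 2.2.3, without roles. Genome build and strand setting: not given in the sources used here. Genes were matched by locus to the TAIR10.1 annotation, from which coordinates and promoter windows were read.

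FPKM values of 25373 of 25374 features above 0 were whole multiples of 1 read at a relative tolerance of 1e-11, and the reads of 147 genes were scaled by a common factor. Recovered totals differed at most 1.12 times between libraries. Intervals were not computed, and depth limits only the genes with few reads.

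Log2(FPKM + 1) of genes reaching 1 FPKM in 3 or more libraries was fitted with limma 3.58.1 (R 4.3.3) with a mean-variance trend, adjusted by Benjamini and Hochberg over 17906 genes, and called at 0.05. Exact permutation tests, recovery and figures used SciPy 1.17.1, pandas 2.3.3, NumPy 2.4.6 and matplotlib 3.10.9 under Python 3.11.15. The fit and the recovery were tested on simulated data. Alternatives were a pseudocount of 0.1, no filter, a mean of at least 5 FPKM, median-ratio and quantile scaling, a replicate block, a library 1 term, libraries 2 and 4 alone, each library left out in turn, and limma's voom on recovered reads.

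All 10 members are named, and per list up to 4 genes, those with the largest and smallest moderated statistic, plus the relatives, genes said to be chosen after their values were seen, and the 5 genes most alike. Members and lists were chosen with earlier results of these data known. The lists cover other low-oxygen genes, oxygen sensing, relatives, glycolysis, touch and wounding, low sugar and dark, heat shock and reference genes, and some genes stand on more than 1 list.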

Additional observations from a re-analysis of the deposited data

Results flagged for a closer look

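For 3 of the 10 genes the difference had opposite signs in library 1 and in libraries 2 and 4. The share of all genes with opposite signs was not counted. Of the 17906 kept genes, 8160 were positive in library 1 and 7571 in libraries 2 and 4. For ADH1 the log2 difference of *hdt1* minus WT was -0.21 in library 1, but 0.93 in libraries 2 and 4. For HB1 it was -0.24 in library 1, but 3.63 in libraries 2 and 4, and the library 1 value rests on 14 reads in *hdt1* and 22 in WT. For PCO2 it was -0.042 in library 1, but 0.63 in libraries 2 and 4, and with 49 reads in each genotype in library 1 its sign there carries no weight. These differences between the sets of libraries were not tested, and library 1 holds 1 library per genotype.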

How the results depend on the processing

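Over all genes, 0 passed in either direction over 6 libraries by limma (1393 higher and 1068 lower at an unadjusted p under 0.05), and the library 1 term gave 684 higher and 451 lower, libraries 2 and 4 alone 4905 higher and 6904 lower, and leaving out 1 library in turn 0 to 1222 higher and 0 to 772 lower. Of the 6 libraries left out in turn, only library 1 of either genotype gave calls (1222 and 772 without that of *hdt1*, 599 and 537 without that of WT). Of the 8 kept core genes 0 passed over 6 libraries, 7 in libraries 2 and 4 alone, and 0 to 4 when 1 library was left out, and their median log2 difference was then 0.60 to 1.24. With 1 library left out, LBD41 ranged between -0.19 (without WT library 1) and 0.91, and PCO2 between 0.0046 (without WT library 1) and 1.03, which is close to 0 at its lowest. HRA1 ranged between 0.43 and 1.46, HB1 between 1.32 and 4.26, PCO1 between 0.76 and 2.07, ADH1 between 0.39 and 0.86, SUS1 between 0.53 and 0.999 and LDH1 between 1.93 and 3.39. The replicate block gave 0 calls over all genes, with an adjusted p of 0.156 to 0.314 from limma for the core genes. Deviations from the mean of each genotype had r = 0.56, 0.53 and 0.46 for equal numbers 1, 2 and 4, but also r = 0.54 and 0.51 for crossed numbers 2 and 4, so the numbers do not tie library 2 or 4 of one genotype to one of the other. Depth limits PDC1, SUS4, HB1, PCO2 and HRA1 where they are low (5 to 90 reads).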
